A study of Drosophila melanogaster with 6 samples.

Results

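The regions described here are the X chromosome binding sites of Jarid2 and Polycomblike (Pcl) in Drosophila melanogaster embryos, taken from ChIP-seq peak lists. Members were chosen by sequence name alone: all peaks that the lists place on chrX, and the regions formed by merging those peaks where they overlap or touch. The X chromosome held 1799 of the 12061 peaks in the 4 lists, and 1084 of the 7007 merged regions. Peaks on XHet, the sequence for unplaced heterochromatin of X, were not members. The samples were 2 immunoprecipitated libraries of BioTAP-Jarid2 (A and B), 2 of BioTAP-Pcl (A and B) and 1 input library for each protein, 6 in all. Every sample came from embryos aged 12 to 24 h. BioTAP is an affinity tag for tandem purification on IgG and streptavidin beads, and all embryos, those of the input libraries included, carried a tagged protein. The labels give no untagged control, no strain, no sex and no promoter for the tagged genes, and do not say whether A and B were separate embryo collections. Comparisons used the immunoprecipitated libraries only. Both Jarid2 lists name one sequencing lane and both Pcl lists another, so that lane and protein cannot be told apart. Where values come in pairs without further label, A stands before B.

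Polycomb repressive complex 2 (PRC2) places methyl groups on histone H3 and keeps developmental genes silent in cells where they are not needed. In Drosophila it is brought to DNA at Polycomb response elements, from which the histone mark spreads into wide domains. Jarid2 and Pcl are accessory subunits found in variant forms of this complex: Pcl is known to bind near response elements and to raise the level of trimethylation, and Jarid2 is known for contacts with nucleosomes and with the catalytic core. The X chromosome is set apart in flies because males carry a lone X, whose active genes are raised in output by the MSL dosage compensation complex. All coordinates are 1-based on dm3. No gene names are attached to the regions, because the available gene table is of a later assembly, and no sequence of the dm3 build was used.

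The first question was how densely each protein's peaks lay on X. Jarid2 A had 216 peaks on X and Jarid2 B had 137, which were 9.89 and 6.27 peaks per Mb of the 21.8 Mb spanned. Pcl A had 871 and Pcl B had 575, which were 39.9 and 26.3 peaks per Mb. In both Jarid2 lists X was the least dense of the 6 main arms. The large autosomal arms 2L, 2R, 3L and 3R ran from 13.2 to 19.7 peaks per Mb in Jarid2 A and from 7.06 to 10.5 in Jarid2 B. For Pcl the X density lay inside the range of those arms, which was 32.3 to 56.6 in Pcl A and 23.1 to 49.8 in Pcl B. Set against the median of the 4 large arms, the X density was 0.541 times as high in Jarid2 A and 0.618 times in Jarid2 B, against 0.9995 times in Pcl A and 0.935 times in Pcl B. The ratios of the proteins did not overlap, the Jarid2 mean being 0.579 ± 0.0548 (SD, n = 2) and the Pcl mean 0.967 ± 0.0455 (SD, n = 2).

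**Figure D1:**
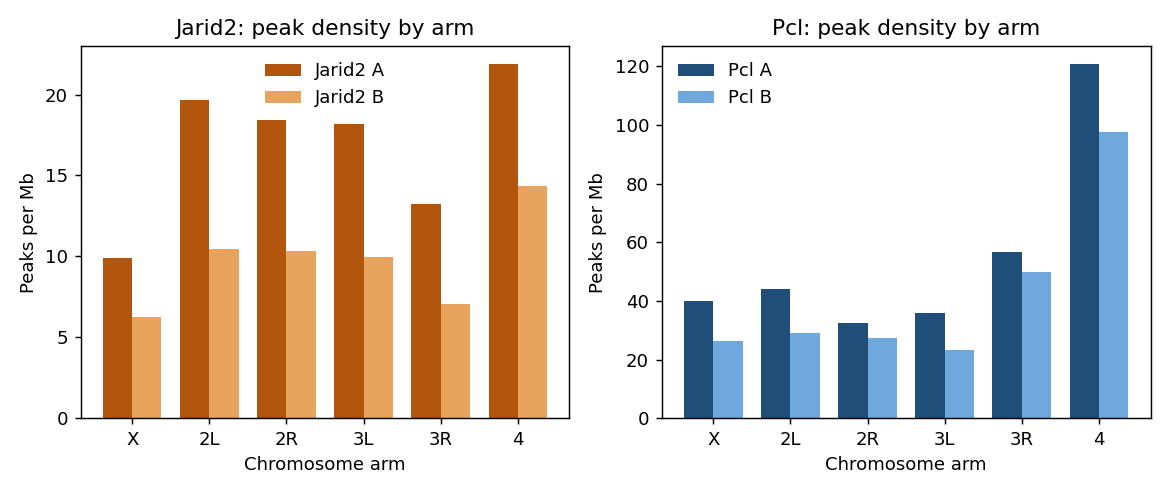
Peaks per Mb (linear axis from 0) on each main chromosome arm, with a bar for each library of Jarid2 (left) and Pcl (right). For Jarid2 the X bars, at 9.89 and 6.27, are the lowest of each library, and for Pcl the X bars, at 39.9 and 26.3, lie among those of the large autosomal arms.

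As a share of the peaks on the main arms, X held 11.5% and 13.1% in the Jarid2 libraries, while the Pcl libraries had 17.0% and 14.9% there. Both Pcl libraries were above both Jarid2 libraries. The means were 12.3% ± 1.15 (SD, n = 2) and 15.9% ± 1.49 (SD, n = 2), a difference of 3.59 percentage points with a two-sided exact permutation p of 0.333. With 2 libraries against 2 there are 3 splits, and 0.333 is the smallest p this design can give, so no comparison of the proteins over libraries could pass 0.05. The p-values compare these libraries only and do not measure the spread between them. That spread may be technical. On X 4 such comparisons were made, and the Benjamini-Hochberg adjusted value was 0.333 for each, again over libraries in an exact permutation test. Pcl peaks are dense on 3R, and with 3R left out of the total the difference was 9.48 points, in the same direction.

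Pcl peaks on X were wider than Jarid2 peaks, and only Pcl formed peaks of several kb. The median width was 234 and 230.0 bp for Jarid2 and 315 and 275 bp for Pcl, so the libraries of the proteins did not overlap. The difference in mean was 63.3 bp (exact permutation p 0.333, the smallest possible). It depended on how the lists were limited: it was 212 bp with peaks at a q of 1e-05 or below and 614 bp with lists cut to equal size. Peaks wider than 1000 bp numbered 2 in Jarid2 A (0.926%; all sequences 1.04%), 0 in Jarid2 B (all sequences 1.80%), 115 in Pcl A (13.2%; all sequences 14.6%) and 47 in Pcl B (8.17%; all sequences 8.91%). These shares on X were a little below those of the whole lists. The widest X peak of both Pcl lists was the same site, chrX:4315223-4323064 in Pcl A at 7842 bp and chrX:4315357-4322150 in Pcl B at 6794 bp, with summits at 4321060 and 4321065. Jarid2 A also had 2 peaks in this site and Jarid2 B had 0. In Pcl B no peak of any chromosome was wider. Jarid2 peaks covered 57.4 and 37.1 kb of X, or 0.263% and 0.170% of its span. Pcl peaks covered 533 and 264 kb, or 2.44% and 1.21%.

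The fold enrichment of a peak, as the authors' caller gave it, describes a peak within its own list. Jarid2 peaks of X had medians of 3.18 and 3.22, and Pcl peaks 3.18 and 4.06. From the 10th to the 90th percentile the Jarid2 folds ran from 2.39 to 4.31 and from 2.27 to 4.55, and the Pcl folds from 2.52 to 5.86 and from 3.24 to 8.17. The upper tail was long only for Pcl. In Pcl A 29 X peaks (3.33%) had a fold over 10, against 3.11% of all Pcl A peaks, and in Pcl B 39 did (6.78%), against 5.90% of all Pcl B peaks. No Jarid2 peak reached that fold on any sequence, so the share over all sequences was 0% in both Jarid2 lists.

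By fold, several of the strongest peaks of the whole lists lay on X. The peak of highest fold in Pcl A, 27.5, was at chrX:5486835-5488629 and the one in Pcl B, 46.0, at chrX:8698967-8702848. The peak of highest fold in Jarid2 B, 7.41, was also on X, at chrX:15520106-15520665. In Jarid2 A the X peak of highest fold, at chrX:14643113-14643487 with a fold of 7.54, was the 6th of 1916. By p the order differed: the X peak of lowest p ranked 17th in Jarid2 A, 7th in Jarid2 B, 1st in Pcl A and 4th in Pcl B. Of the 10 peaks of highest fold in each list, X held 1 and 2 for Jarid2, against 6 and 2 for Pcl. Of the top 100 it held 11 and 17 Jarid2 peaks, with 17 and 16 for Pcl. The share of all peaks that lay on X was 11.3% and 13.0% (Jarid2), or 16.8% and 14.7% (Pcl).

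A further value describes the background behind the folds. In Jarid2 A, Pcl A and Pcl B, fold and p of every X peak could be written as a whole read count at the summit and the background the caller compared it with. In Jarid2 B this held for 7 of 137 X peaks (5.11%), and that list was not used here. In these 3 lists, in this order, the median background at X peaks was 10.8, 6.54 and 2.70 reads. It was below every large autosomal arm in all 3 lists, where the medians ran from 11.6 to 14.1, 7.30 to 7.72 and 2.95 to 3.20. In Pcl A 543 X peaks, or 62.3%, stood at the lowest background of the list, 6.54, and on the large arms 24.0% to 31.0% did. In Pcl B 388 X peaks, or 67.5%, stood at its lowest background, 2.70, against 21.2% to 33.6%. The contrast was smaller in Jarid2 A, with 9.72% on X and 4.63% to 7.48% on the large arms. The background enters the denominator of the fold, and its part in the densities and folds above was not tested.

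**Figure D2:**
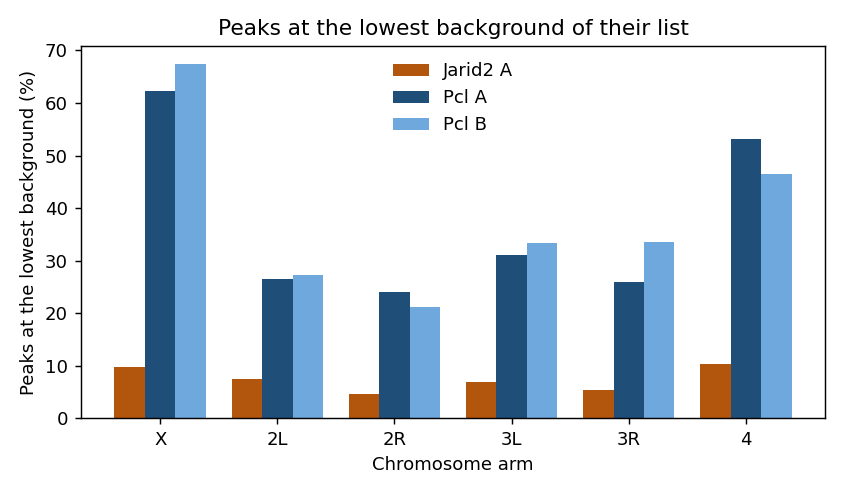
Share of the peaks of each arm, in percent on a linear axis from 0, whose recovered background equals the lowest of their list, for Jarid2 A, Pcl A and Pcl B (bars). For Pcl the X bars reach 62.3% and 67.5%, above the 21.2% to 33.6% of the large autosomal arms; chromosome 4 also stands high.

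Pcl peaks on X lay in tight clusters, while most Jarid2 peaks stood alone. Another peak of the same list lay within 5 kb of 26.9% of Jarid2 A peaks and 17.5% of Jarid2 B peaks, against 91.4% of Pcl A peaks and 87.0% of Pcl B peaks. The means were 22.2% ± 6.60 (SD, n = 2) and 89.2% ± 3.13 (SD, n = 2), a difference of 67.0 points (exact permutation p 0.333, the smallest possible). The Pcl lists were also the longer, and with lists of equal size the difference was 54.1 points. The median distance from an X peak to the next of its list was 27.1 kb in Jarid2 A and 46.6 kb in Jarid2 B, and 253 bp and 362 bp in Pcl A and Pcl B. Within 1 kb, 77.4% of Pcl A and 72.7% of Pcl B peaks had a neighbour, against 20.4% and 13.9% in the Jarid2 lists. Whether neighbouring Pcl peaks were parts of a single wider site was not tested. In both Jarid2 lists the X share within 5 kb was below that of the 5 other main arms. The large arms ran from 39.3% to 55.3% in Jarid2 A and from 23.9% to 35.2% in Jarid2 B. X was also the sparsest arm in both lists, and the part of density in this share was not tested. For Pcl the large arms ran from 90.6% to 94.4% in Pcl A and from 89.8% to 95.2% in Pcl B, so Pcl B on X was below them and Pcl A inside their range.

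Windows of 200 kb show the same concentration. Up to its last peak X had 110 windows. Of these, 22 held no Jarid2 A peak and 44 no Jarid2 B peak, while 46 held no Pcl A peak and 59 no Pcl B peak. As a share of windows the difference in mean was 17.7 points (exact permutation p 0.333, the smallest possible). It moved with single libraries: it was 7.73 points without Jarid2 A, 27.7 without Jarid2 B, 23.6 without Pcl A and 11.8 without Pcl B. With lists of equal size it was 30.9 points. With peaks at a q of 1e-05 or below it was 14.1 points (exact permutation p 0.667). There the libraries overlapped, with 57.3% of windows empty in Jarid2 B and 50% in Pcl A. The densest 11 windows held 28.7% of the X peaks of Jarid2 A and 37.2% of Jarid2 B, against 72.9% of Pcl A and 75.7% of Pcl B. Only 8 windows held no peak of any list. The densest windows of Pcl were at 4.4 to 4.6 Mb, with 75 and 68 peaks, at 4.2 to 4.4 Mb, with 80 and 57, and at 5.4 to 5.6 Mb, with 70 and 58. Jarid2 A had 3, 2 and 1 peaks in these windows and Jarid2 B had 2, 0 and 1. The densest windows of Jarid2 were at 7.4 to 7.6 Mb, with 12 peaks in Jarid2 A and 5 in Jarid2 B, at 16.0 to 16.2 Mb, with 7 in each, and at 2.0 to 2.2 Mb, with 7 and 4. Pcl was present in all 3, with 33, 50 and 7 peaks in Pcl A and 15, 23 and 5 in Pcl B. Across the 110 windows, the peak numbers of the replicates had a Pearson r of 0.762 for Jarid2 and 0.962 for Pcl. Between the proteins r ran from 0.126 to 0.225. These are descriptions across windows, which share their libraries.

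**Figure D3:**
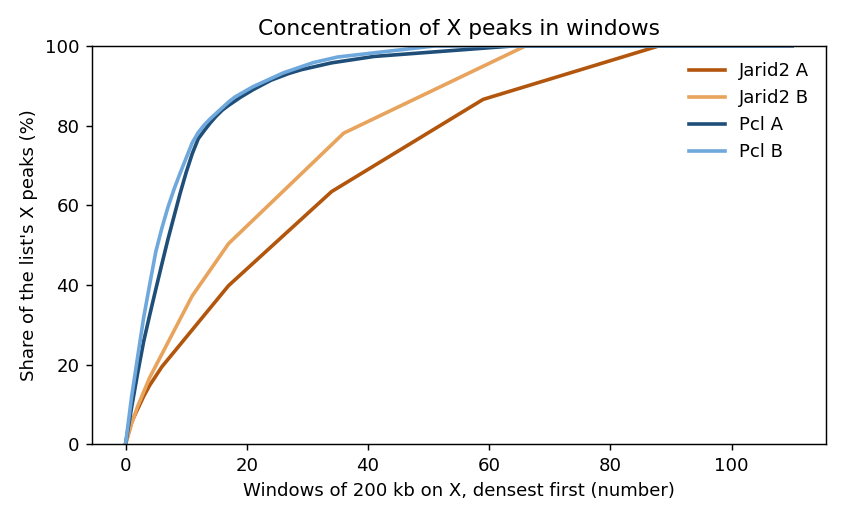
Cumulative share of the X peaks of each list, in percent, over the 110 windows of 200 kb ordered from the densest to the emptiest, with a line for each library. The Pcl lines climb steeply, to 72.9% and 75.7% in the first 11 windows, and the Jarid2 lines reach 28.7% and 37.2% there.

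Regions called in both replicates of a protein, called reproducible here, numbered 110 for Jarid2 and 330 for Pcl on X. Their median widths were 308 bp and 775 bp. Joining Pcl regions less than 10 kb apart gave 89 groups, of which 53 were a single region. The 7 largest groups held 168 of the 330 regions, or 50.9%, on 1.87% of the span of X. That share lay inside the range of the large arms, whose 7 largest Pcl groups held 38.9% to 53.5%. The 7 groups of X took in 36.7% of the Pcl A peaks and 51.8% of the Pcl B peaks of X, but 4.17% of the Jarid2 A and 3.65% of the Jarid2 B peaks. The group with the most regions, 34, was chrX:5437431-5502783, which held 63 peaks of Pcl A and 57 of Pcl B and none of Jarid2. Of its 65.4 kb, Pcl A peaks covered 68.8% and Pcl B peaks 35.4%. The longest group, chrX:4274840-4356955, spanned 82.1 kb with 31 regions, 62 Pcl A peaks and 49 Pcl B peaks, beside 2 peaks of Jarid2 A. The next were chrX:17651402-17711918 with 25 regions, chrX:8514161-8571016 with 23 and chrX:9585090-9644388 with 21. Of the Pcl groups on X 59.6% were single regions, a larger share than on any other main arm, where it was 25.0% to 47.0%. Jarid2 regions did not group in this way: 104 groups came from 110 regions, 99 of them single regions, and the largest held 3 regions in 2.95 kb at chrX:16042180-16045130.

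Position along X differed between the proteins. From 10 to 15 Mb lay 19.4% of the X peaks of Jarid2 A and 21.9% of Jarid2 B, but 3.21% of Pcl A and 2.26% of Pcl B. From 5 to 10 Mb Pcl was densest, with 43.3% of the X peaks of Pcl A and 42.8% of Pcl B, against 29.6% and 29.2% in the Jarid2 lists. The first 5 Mb held 23.1% and 27.0% of Jarid2 peaks, with 24.8% and 28.2% of Pcl peaks. The segment from 15 to 20 Mb held 24.5% and 19.7% of Jarid2 peaks, with 22.3% and 21.2% of Pcl peaks. In these 2 segments the libraries of the proteins overlapped. Past 20 Mb there were 7 peaks of Jarid2 A, 3 of Jarid2 B, 56 of Pcl A and 32 of Pcl B. The segments were set without a test, and within a protein the replicates differed by less than 5 points in each of them. The first peaks of X were Pcl peaks: a group of 8 Pcl regions at chrX:6142-14091 opened the chromosome, with highest folds of 5.19 and 6.44, and held no Jarid2 peak.

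**Figure D4:**
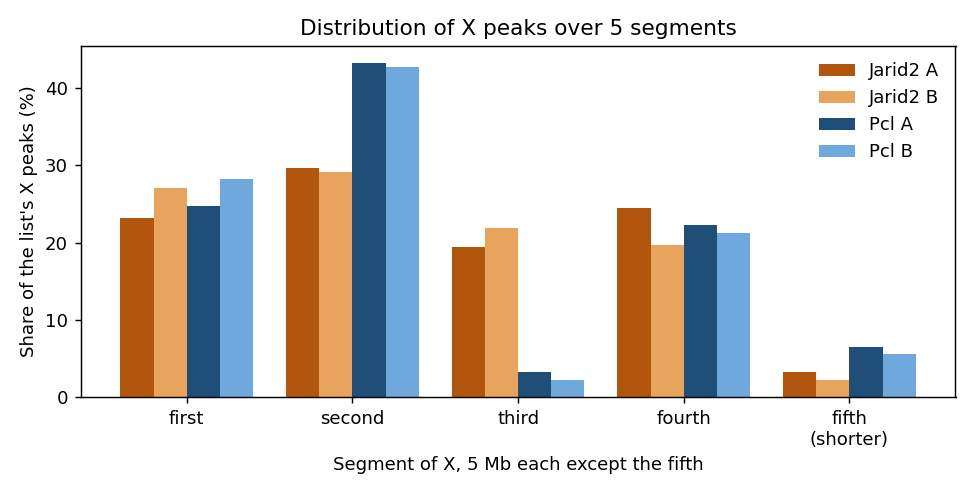
Share of the X peaks of each list, in percent on a linear axis from 0, in 5 consecutive segments of X, each of 5 Mb except the shorter remainder at the end, with a bar for each library. In the third segment the Jarid2 bars stand at 19.4% and 21.9% and the Pcl bars at 3.21% and 2.26%, and in the second the Pcl bars are the highest at 43.3% and 42.8%.

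The 1084 merged regions of X fell into classes by the lists that called them. Regions called in all 4 lists numbered 17, or 1.57% of the X regions, against 1.71% over all sequences. Regions of both Jarid2 lists and no Pcl list (Jarid2-only) numbered 89, or 8.21%, against 10.2%. Regions of both Pcl lists and no Jarid2 list (Pcl-only) numbered 299, or 27.6%, against 25.0%. A further 659, or 60.8%, were called in exactly 1 list, against 60.7% over all sequences: 502 in Pcl A, 72 in Pcl B, 70 in Jarid2 A and 15 in Jarid2 B. The shares on X were thus within a few points of those of the whole set. Another 11 regions were called in both Pcl lists and Jarid2 A, 2 in both Pcl lists and Jarid2 B, 1 in both Jarid2 lists and Pcl A, and 1 in both Jarid2 lists and Pcl B. The remaining 5 regions were in Jarid2 A and a single Pcl list, 3 with Pcl A and 2 with Pcl B. Leaving out a library lets the remaining list alone define its protein. This loosens the class rules, so higher counts were built in. Without Jarid2 B there were 28 regions called by Jarid2 and both Pcl lists and 161 Jarid2-only regions, and Pcl-only regions numbered 536 without Pcl A and 835 without Pcl B. With peaks at a q of 1e-05 or below there were 6 regions in all 4 lists, 54 Jarid2-only and 173 Pcl-only regions, and with lists of equal size 11 regions in all 4 lists and 102 Pcl-only regions.

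The 17 regions in all 4 lists had a median width of 2749 bp and a range of 743 to 7826 bp. The Jarid2-only regions had a median of 290.0 bp (176 to 824 bp) and the Pcl-only regions 728 bp (163 to 7365 bp). In the 17 regions the Jarid2 folds had medians of 3.33 and 3.37 and the Pcl folds 8.26 and 11.6. The medians of Jarid2 at Jarid2-only regions were 3.70 and 3.31, and those of Pcl at Pcl-only regions 3.98 and 4.33. The fold of a region is that of its highest peak, and the part of region width in these folds was not tested.

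**Figure D5:**
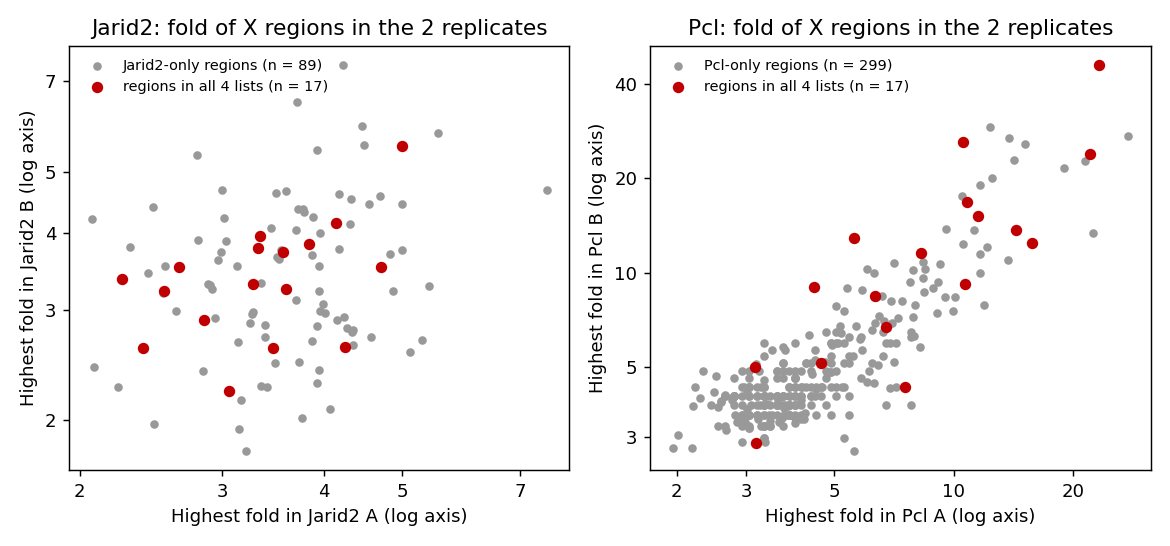
Highest fold of X regions in replicate A (horizontal) and B (vertical), on log axes, for Jarid2 (left) and Pcl (right); grey points are the 89 Jarid2-only and 299 Pcl-only regions and red points the 17 regions in all 4 lists. Red points reach the top of the Pcl panel, at 23.3 and 46.0, and lie inside the Jarid2 cloud.

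By mean rank of fold, the first of the 17 regions was chrX:8698936-8702848, where the Jarid2 folds were 3.56 and 3.72 and the Pcl folds 23.3 and 46.0. Its summits lay close together, at 8699781 and 8699767 for Jarid2 and at 8699993 and 8699984 for Pcl. The second was chrX:2017283-2020536, at 4.15-fold and 4.14-fold for Jarid2 beside 10.7-fold and 9.17-fold for Pcl. There the summits of Jarid2 A and Pcl A were 24 bp apart, and those of the Pcl lists 1078 bp apart. The third was chrX:9586229-9589256, with 3.32-fold and 3.78-fold for Jarid2, 10.6-fold and 26.2-fold for Pcl, at the edge of a Pcl group of 21 regions. The fourth and widest, chrX:16038471-16046296, had folds of 3.60, 3.25, 11.5 and 15.1 and held 6 peaks of Jarid2 A, 5 of Jarid2 B, 2 of Pcl A and 6 of Pcl B. Its Jarid2 A summit lay 2419 bp from that of Pcl A, so the region was common but the summits stood apart. The last of these 5, chrX:9177397-9179881, had the highest Jarid2 folds of the 17, 5.001 and 5.50, with Pcl folds of 7.55 and 4.33, and it was the sole Pcl region of its group. The next widest were chrX:2030747-2037744 at 6998 bp and chrX:16109252-16114606 at 5355 bp. Over the 17 regions the Jarid2 A and Pcl A summits were a median of 307 bp apart (24 to 2479 bp), and the Jarid2 B and Pcl B summits 268 bp (13 to 3278 bp). The replicate summits were closer, with medians of 91 bp for Jarid2 and 32 bp for Pcl. Of the 17 regions 8 had another within 50 kb and 10 had another within 100 kb.

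Outside those 17, the X peak of highest fold in each Pcl list lay in a Pcl-only region. This class leaves out regions that a single Jarid2 list also called. Among those, chrX:17680565-17686345 had Pcl folds of 17.0 and 24.4, beside a Jarid2 A fold of 2.46. In both lists it was above chrX:17289774-17292294 and chrX:17660457-17664148, named below. The first Pcl-only region by mean rank, chrX:5486835-5488705, stood at 27.5-fold and 27.4-fold with summits 13 bp apart. It shared the group of 34 regions with chrX:5452124-5456693, at folds of 13.8 and 26.8, and chrX:5472468-5474310, at 19.0 and 21.6. No Jarid2 peak of either list lay within 40.6 kb of any of these 3. The second, chrX:4301639-4308424, had folds of 15.2 and 25.7, and the third, chrX:9620596-9625337, had 21.4 and 22.8. A pair in the group at 8.5 Mb followed, chrX:8516869-8521911 with folds of 14.2 and 22.8 and chrX:8541211-8548138 with 12.3 and 29.1. The remaining named regions were chrX:4489793-4492175 (22.6 and 13.4), chrX:17289774-17292294 (12.5 and 20.05) and chrX:17660457-17664148 (11.7 and 19.0), each value a fold in Pcl A and then Pcl B. Of these 10 regions 9 lay in the 7 largest groups, and the summits of the replicates were 2 to 91 bp apart. The order of the libraries was not uniform: Pcl B had the higher fold in 8 of the 10, and folds of separate lists rest on separate backgrounds. The widest Pcl-only regions were chrX:4492391-4499755 at 7365 bp, chrX:17692437-17699545 at 7109 bp and chrX:8541211-8548138 at 6928 bp.

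Jarid2-only regions were narrow, and they held the strongest X peak of both Jarid2 lists, at 7.54-fold and 7.41-fold. In all 89 the summits of Jarid2 A and B lay within 102 bp of each other, with a median of 18 bp. The first by mean rank, chrX:3730041-3730348, stood at 5.54-fold and 5.78-fold with both summits at 3730198. The second, chrX:14643113-14643494, had 7.54 and 4.69, and the third, chrX:11700913-11701236, had 4.46 and 5.92. Then came chrX:2993493-2993841 with 4.49 and 5.52 and chrX:2116086-2116375 with 5.001 and 4.44. Their distance from Pcl varied widely: the nearest peak of any Pcl list was 26.5, 10.3, 808, 2.21 and 76.8 kb away in this order. The third stood inside the longest stretch of X without Pcl. The widest Jarid2-only regions were chrX:17400400-17401223 at 824 bp, chrX:10440045-10440863 at 819 bp and chrX:1028411-1029022 at 612 bp. The ranking of Jarid2 regions depended on the measure, since 1 of these 5 was also among the first 5 by p, against 10 of the 10 Pcl-only regions and 3 of the 5 regions named from all 4 lists.

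The next comparison asked how far the replicates agreed on X. Of the X peaks of Jarid2 A 114 of 216, or 52.8%, were overlapped by Jarid2 B (Wilson 95% interval 46.1 to 59.3%; all sequences 49.6%). Of those of Jarid2 B 117 of 137, or 85.4%, were overlapped by Jarid2 A (78.5 to 90.3%; all sequences 87.8%). For Pcl, 363 of 871 A peaks, or 41.7%, were overlapped by B (38.4 to 45.0%; all sequences 42.6%), and 499 of 575 B peaks, or 86.8%, by A (83.8 to 89.3%; all sequences 86.6%). Each interval contained the share over all sequences, and the intervals cover counting error only. The X peaks with a partner had higher median folds and widths. The median fold on X was 3.54 with and 2.86 without a partner in Jarid2 A, and 3.98 and 3.00 in Pcl A. The contrast was smaller in the B lists, with 3.22 and 3.05 in Jarid2 B and 4.27 and 3.79 in Pcl B. The median widths in Pcl A were 644 bp with and 244 bp without. A wider peak is more easily overlapped, and the part of width in these contrasts was not tested. Among the reproducible X regions, log2 fold in A and B had a Pearson r of 0.230 over the 110 Jarid2 regions and 0.856 over the 330 Pcl regions. On the large arms r ran from 0.303 to 0.417 for Jarid2 and from 0.810 to 0.855 for Pcl. These are descriptions across regions of the same 2 libraries.

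The last comparison between the proteins asked how often reproducible regions of one lay on those of the other. On X, 19 of the 110 Jarid2 regions, or 17.3%, were overlapped by a Pcl region (Wilson 95% interval 11.3 to 25.4%; all sequences 16.9%). On the large arms 14 of 175 regions were overlapped on 3R, and the share was 10.2% on 3L, 17.9% on 2L and 24.5% on 2R, so X lay between them. Conversely, 17 of the 330 Pcl regions, or 5.15%, were overlapped by a Jarid2 region (3.24 to 8.09%; all sequences 5.92%). The large arms ran from 1.99% to 11.9%. The Pcl share was 8.79% without Jarid2 B, 2.07% without Pcl B, 3.13% with peaks at a q of 1e-05 or below and 9.02% with lists of equal size. Without a library, the remaining list alone defined the regions of its protein. The Jarid2 share was 10% at that q. The 91 Jarid2 regions of X that were not overlapped lay a median of 170 kb from the nearest Pcl region, and 2 of them lay within 5 kb. The 313 Pcl regions not overlapped lay a median of 69.9 kb from the nearest Jarid2 region, the highest median among X and the large arms, where it was 22.7 to 62.9 kb. Jarid2 regions were also sparsest on X, at 5.04 per Mb against 6.27 to 8.96 on the large arms, and the part of this spacing in the distance was not tested. Of the 110 Jarid2 regions 17 lay inside 1 of the 36 Pcl groups of more than 1 region.

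Each arm was taken to end at its last peak of any list, so a stretch past that peak was not counted. Within this span, the longest stretches of X without a peak of any list were chrX:19781750-20381499 at 0.600 Mb, chrX:12570672-13105478 at 0.535 Mb and chrX:10825168-11348149 at 0.523 Mb. After these came chrX:20628275-20914103 at 0.286 Mb and chrX:17714412-17995207 at 0.281 Mb. Up to the last peak of each arm, the longest such stretch was 0.373 Mb on 2L, 0.570 Mb on 2R, 0.316 Mb on 3L and 0.760 Mb on 3R. X had 16 stretches over 200 kb, and the large arms had 14 to 22.

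The stretches without Pcl were far longer and were not empty of Jarid2. Within the same spans, the longest without a peak of either Pcl list was chrX:10759914-12509667, 1.75 Mb. It was longer than those of the large arms, which were 0.735 to 1.33 Mb. It held 12 peaks of Jarid2 A and 6 of Jarid2 B, or 6.86 and 3.43 per Mb against 9.89 and 6.27 on X as a whole. The second, chrX:12570672-13699686, spanned 1.13 Mb and held 8 Jarid2 A and 7 Jarid2 B peaks. The third, chrX:504742-1429281, spanned 0.925 Mb and held 7 and 6. Jarid2 was thus present in all 3. In single lists, the longest stretch was 1.75 Mb in Pcl A and 2.01 Mb, at chrX:10496660-12509722, in Pcl B. The large arms reached 1.60 Mb in Pcl A, on 3L, and 2.44 Mb in Pcl B, on 3R, so X had the longest stretch in Pcl A but not in Pcl B. For Jarid2 it was 0.780 Mb in A, at chrX:19781611-20561448, and 0.927 Mb in B, at chrX:13716385-14643200. These held peaks of the other lists: the stretch of Jarid2 A held 2 peaks of Jarid2 B, 31 of Pcl A and 18 of Pcl B, and that of Jarid2 B held 6 of Jarid2 A, 15 of Pcl A and 8 of Pcl B. Without a peak of either Jarid2 list, the longest were chrX:19781750-20381499, which no Pcl list entered, chrX:1169074-1725261 at 0.556 Mb, with 2 peaks of Pcl A and 1 of Pcl B, and chrX:12553679-13105478 at 0.552 Mb, with 1 peak of Pcl A. Whether reads can be mapped in these stretches was not tested, and a stretch without peaks may hold sites too weak to pass at this unknown depth.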

How the data were processed

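Peak lists of 4 immunoprecipitated libraries (Jarid2 A and B, Pcl A and B) were analysed. Per the labels' protocols, nuclei were fixed in 3% formaldehyde for 30 min, and adaptor-ligated DNA of 250 to 500 bp was amplified with 10 to 12 cycles. Per the submitters' processing notes, the build was dm3 and the tools were Trimmomatic 0.36, Bowtie 1.2.2, deepTools 3.0.2 and MACS2 2.1.1; their roles, the control and the threshold are not given in the sources used here. The authors deposited 1 list per library, unpooled, in the narrowPeak layout of 10 columns without header. The deposited fold is a linear ratio. The deposited −log10 p and −log10 q are the caller's, and the deposited score repeats −log10 q. Read depth is unknown from the lists.

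Peaks were merged where they overlapped or touched, a fold of a region was its highest peak, and overlap meant at least 1 bp. Arm lengths were the highest peak end over the lists. Windows counted summits. Libraries of the proteins were compared with a two-sided exact permutation test over 4 measures, threshold 0.05. Summit counts were recovered from fold and p, taking 1 to have been added to both the count and the background and p to be Poisson, by searching whole counts up to 2000 with a relative tolerance of 0.001. The lowest background means within that tolerance of the minimum of a list. Merging, overlap, stretches, recovery and the exact test were tested on simulated data. Named regions were the 10 Pcl-only, 5 Jarid2-only and 5 regions in all 4 lists with the smallest mean rank of fold, the strongest peak of each list, the 3 widest per class, the 3 densest windows per protein and the longest stretches. The members, lists and tests were chosen with earlier results of these data known. Alternatives were a q of 1e-05 or below, lists of equal size (1055 peaks), other overlaps, distances and windows, merging across 1 kb and leaving out each library. The work used pandas 2.3.3, numpy 2.4.6, matplotlib 3.10.9 and scipy 1.17.1 under Python 3.11.15.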

Additional observations from a re-analysis of the deposited data

Results flagged for a closer look

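Peaks also lay on XHet, the sequence of X heterochromatin that is not part of chrX and entered no comparison above. They were found in 3 of the 4 lists. Jarid2 A had 8, Pcl A had 7 and Pcl B had 10, and Jarid2 B had 0. All fell between 183900 and 203103 of that sequence, with a median fold of 2.34 in Jarid2 A, 2.87 in Pcl A and 5.44 in Pcl B.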

How the results depend on the processing

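Of 108 alternatives (100 planned and 8 chosen after seeing the data), 80 left their result within its limit, 28 moved it and 0 reversed it. For the tested differences the limit was the direction alone, so a change of any size counted as within it. The width difference counted so, although it was 63.3 bp in the main setting and 614 bp with lists of equal size. No other result could be labelled reversed. All 38 alternatives of the tested differences kept the Pcl mean above the Jarid2 mean. Those that paired libraries by letter, straight or crossed, repeat the main difference by construction and could not have changed it. The libraries could still overlap: at a q of 1e-05 or below, 57.3% of 200 kb windows were empty in Jarid2 B and 50% in Pcl A. Limiting peaks to a q of 1e-05 or below left 6 regions in all 4 lists, 54 Jarid2-only and 173 Pcl-only regions. It gave 44.8% for Jarid2 A in Jarid2 B and 90.03% for Pcl B in Pcl A, 10% of Jarid2 regions overlapped by Pcl and 3.13% of Pcl regions overlapped by Jarid2, and mean longest stretches of 1308 kb for Jarid2 and 2131 kb for Pcl. Lists of equal size left 11 regions in all 4 lists and 102 Pcl-only regions, gave replicate overlaps of 72.7% (Jarid2 A), 67.9% (Jarid2 B) and 67.6% (Pcl A), and 9.02% of Pcl regions overlapped by Jarid2. Requiring 50% of the shorter peak gave 36.1% and 79.5% for Pcl A and Pcl B, and summits within 500 bp gave 46.4% and 68.3%. Merging across 1 kb gave 128 Pcl-only regions. Ranking by p kept 3 of the 5 regions named from all 4 lists and 1 of the 5 Jarid2-only regions. Leaving out each library gave 18 to 28 regions of all remaining lists, Jarid2-only counts of 90 to 161, Pcl-only counts of 301 to 835, and 2.07% to 8.79% of Pcl regions overlapped by Jarid2. The cause of these changes was not tested, except that leaving out a library loosens the rule that both replicates call a region. With the letters A and B as a replicate block, the X share differed by 3.59 points with an exact permutation p of 0.5, the smallest that 2 pairs allow, and 0 of 4 tests passed with or without the block; the letters pair the libraries only by name. Crossing the letters, added after seeing the data, also gave 0 of 4. Read depth is unknown, so sites too weak to call cannot be told from absent ones.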
